A study of Mus musculus with 30 samples.

Results

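HPC7 is a mouse haematopoietic stem and progenitor cell line. The comparison described here sets 3 mRNA libraries of HPC7 carrying STAT3 Y640F against 3 libraries of HPC7 carrying wild-type STAT3. They were taken by title from the 18 mRNA libraries of the series, which holds 30 samples in all. A further 3 HPC7 libraries carried the empty vector, named in the labels after its dsRed marker, and 9 libraries came from a related line, HPCLSK, with the same vectors. All HPC7 groups shared strain 129SV by label, a retroviral vector, Iscove's medium with serum and stem cell factor, and no treatment. By label the groups differed only in the encoded protein: none in empty vector, wild-type STAT3, or STAT3 with the Y640F substitution. The libraries also differed in Y-linked and chromosome 2 genes, described below, which the labels do not mention. The series text calls the 3 libraries of a group technical replicates. The p-values therefore measure the spread between libraries of a group, pooled over the 3 HPC7 groups, which may be technical. Differences between independently transduced cultures were not sampled.

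STAT3 is a transcription factor that is activated by Janus kinases (JAKs) below receptors for interleukin-6 family cytokines, interleukin-10, granulocyte colony-stimulating factor and others. Phosphorylated STAT3 dimerises through its SH2 domain, enters the nucleus and binds palindromic DNA elements, and its best known targets include Socs3, which feeds back on the receptor, the Pim kinases and Bcl3. The Y640F substitution lies in the SH2 domain, is recurrent in large granular lymphocytic leukaemia and gives a protein with raised activity. Interferon-stimulated genes are driven in the main by other STAT proteins together with IRF9, through a separate DNA element.

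The 6 libraries held 29700806 to 38556669 counts. Levels below are CPM, counts scaled to the library total and adjusted by trimmed-mean library factors over the 9 HPC7 libraries. Of 50686 genes listed, 12683 passed the low-count filter and were tested with edgeR. Calls needed a Benjamini-Hochberg adjusted p below 0.05 and a difference of at least 2-fold. A value after ± is the SD over 3 libraries for CPM and the standard error for a log2 fold change. Markers of the progenitor label stood at mixed levels. Of 34 stem and progenitor genes 30 passed the filter, which does not test cell identity. The stem cell factor receptor gene Kit, also a listed mast cell gene, stood at 1508 ± 24.6 CPM with STAT3 and 1608 ± 43.5 CPM with Y640F. Gata2, a progenitor transcription factor, stood at 225 ± 0.389 and 243 ± 4.75 CPM, and Meis1 at 148 ± 3.94 and 136 ± 5.13 CPM. Lhx2, the factor used in deriving such lines, was low at 3.77 ± 0.390 and 2.73 ± 0.184 CPM. The surface genes Ly6a and Procr, also on that list, were at 0.314 and 2.59 CPM with STAT3 and 8.77 and 13.8 CPM with Y640F.

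Stat3 RNA was counted at 1019, 1018 and 979 CPM in the STAT3 libraries and at 706, 671 and 676 CPM in the Y640F libraries, against 227, 237 and 217 CPM with empty vector. Both groups stood above empty vector, and every Y640F library lay below every STAT3 library. The log2 fold change of Y640F over STAT3 was -0.56 ± 0.04 (adjusted p = 8.9e-08), short of the 2-fold minimum. The gene lies at about chr11:100885000-100940000 (GRCm38, rounded positions). The counts do not separate transcripts of the vector from those of the cell's own gene. All HPC7 differences below were therefore measured in cells with less total Stat3 RNA than their STAT3 comparator.

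With Y640F, 782 genes rose and 219 fell, which is 6.17% and 1.73% of the genes tested (7.89% called in all). These shares are the background for every list count below, and no list was tested as a set. The higher calls were also larger. On the log2 scale their median was 1.59, with 261 at 4-fold or more, 119 at 8-fold or more and 53 at 16-fold or more. The lower calls had a median of -1.48, with 58, 20 and 12 at those sizes. Most higher calls were of modest abundance: 340 of 782 reached 5 CPM in the higher group and 60 reached 50 CPM. With the adjusted p as the sole criterion 3433 genes were higher and 3055 lower, or 51.2% of those tested, so the excess of higher calls lay in the larger differences. The 3 and 3 libraries did not overlap for 777 of 782 higher and 215 of 219 lower calls, where 65.2% of all tested genes had no overlap, so non-overlap alone marked little here.

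**Figure D1:**
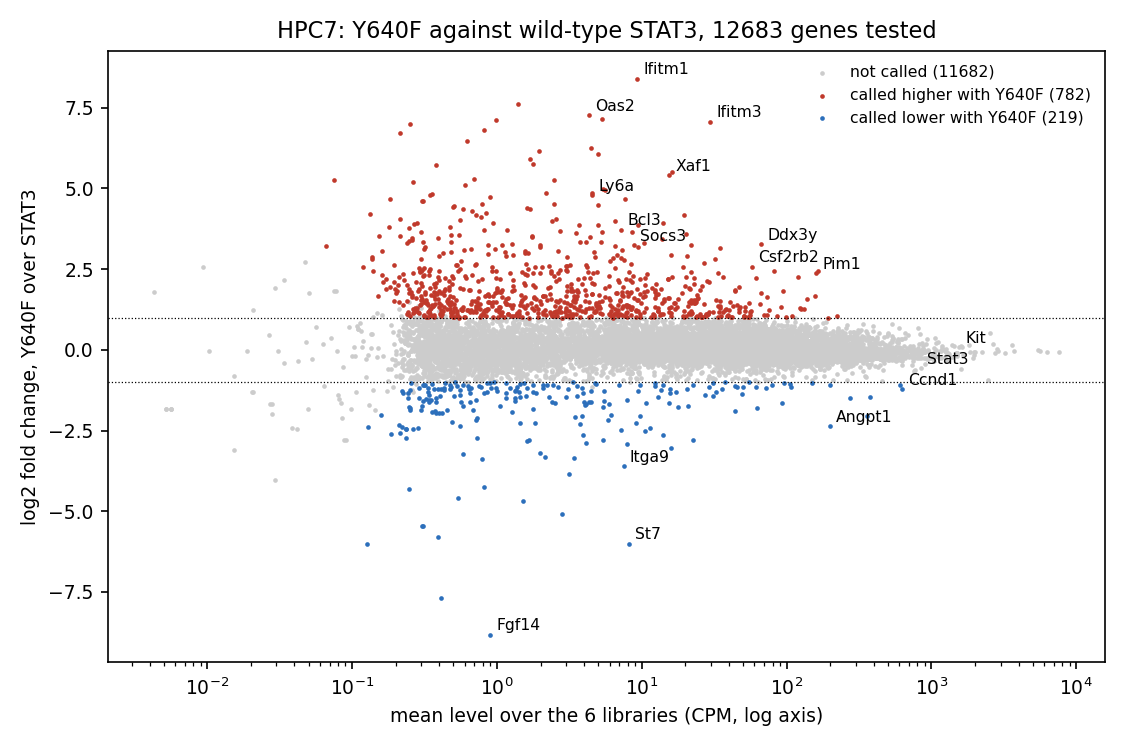
Each point is 1 of 12683 tested genes, with its mean CPM over the 6 libraries on a log axis and its log2 fold change of Y640F over STAT3. Red points are the 782 genes called higher, blue the 219 called lower and grey the rest, and dotted lines mark 2-fold. Kit and Stat3, at the right, lie inside the dotted lines, while Ifitm1, Oas2 and Ifitm3 stand at the top and Fgf14 at the bottom, at a fitted value that has no lower limit since it had no count with Y640F.

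The empty vector gives a second reference for these calls. Among the 782 higher genes its mean lay between the STAT3 and Y640F means for 493, at or beyond the STAT3 side for 118 and at or beyond the Y640F side for 171. Among the 219 lower genes it lay between for 118, on the STAT3 side for 79 and on the Y640F side for 22. On a log2 scale with 0.1 CPM added, empty vector was nearer to Y640F than to STAT3 for 49.5% of the higher and 28.3% of the lower genes. A gene called higher with Y640F could thus be one that stood above empty vector with Y640F, one that stood below it with STAT3, or both. These are positions of group means that share the same libraries, given without a test. Empty-vector values stand beside some of the genes below. For the others, the values printed do not tell a change with Y640F from a change with STAT3.

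Within the list of JAK-STAT receptors, kinases and STAT proteins, the called genes were all receptor chains. Of 18 tested cytokine receptor chains 8 rose and none fell. The median of these chains was 0.91 on the log2 scale, and that of the whole list was 0.48. The median of all tested genes was -0.00. Csf2rb2 and Csf2rb encode the beta chains of the receptors for interleukin-3, granulocyte-macrophage colony-stimulating factor and interleukin-5, the first serving interleukin-3 alone. Csf2rb2 was counted at 17.9, 16.4 and 15.3 CPM with STAT3 and 97.0, 92.1 and 107 CPM with Y640F, and empty vector at 16.7 ± 2.07 CPM lay at the STAT3 level. Its log2 fold change was 2.58 ± 0.09 (adjusted p = 7.3e-11). Csf2rb went from 41.8 ± 1.77 to 147 ± 8.49 CPM (log2 fold change 1.81). These are near-identical copies, so the split of reads between them is uncertain. Il6st encodes gp130, the chain shared by interleukin-6 family receptors. It was counted at 2.07, 1.44 and 1.96 CPM with STAT3, 8.37, 6.74 and 7.35 CPM with Y640F and 5.11 ± 0.453 CPM with empty vector, a log2 fold change of 2.05 ± 0.15 (adjusted p = 7.3e-08). The interferon-gamma receptor chain Ifngr2 rose by 1.66, the interleukin-6 receptor Il6ra by 1.09, the interleukin-4 receptor Il4ra by 1.06, the erythropoietin receptor Epor by 1.13 and the common gamma chain Il2rg by 1.01 on the log2 scale. Il2rg lay at the 2-fold limit and was not called without STAT3 library 2 (0.97), without Y640F library 1 (0.99) or with chromosome medians subtracted (0.88).

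None of the 11 tested kinase and STAT genes was called with edgeR (5 higher and 2 lower at an unadjusted p under 0.05, which 29.9% of all tested genes passed as higher and 27% as lower). Jak1 was 442 ± 6.52 CPM with STAT3 and 304 ± 7.49 CPM with Y640F, and Jak2 162 ± 5.41 and 209 ± 3.07 CPM. Stat2 stood at 29.7 ± 1.18 and 41.5 ± 1.51 CPM. Stat5a and Stat5b had log2 fold changes of -0.05 and 0.05. Of 18 tested inhibitors of the pathway only Socs3 was called (5.56% higher, against 6.17% of all tested genes). This inhibitor, which binds gp130 and JAKs, was counted at 1.79, 1.77 and 1.48 CPM with STAT3 and 16.6, 15.3 and 16.2 CPM with Y640F, and at 3.50, 3.35 and 2.75 CPM with empty vector. The 3 Y640F libraries stood apart from all other HPC7 libraries, with a log2 fold change of 3.25 ± 0.11 over STAT3 (adjusted p = 9.5e-11). Cish, the inhibitor tied to STAT5, was not called: it was 12.9, 12.3 and 11.4 CPM with STAT3 and 8.60, 10.4 and 10.1 CPM with Y640F (log2 fold change -0.32 ± 0.09, adjusted p = 0.009), and both were above the 4.54 ± 0.434 CPM of empty vector.

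The RefSeq promoter table (GRCm38.p6, 250 bases before to 50 after a start) was searched for the STAT element TTCNNNGAA, which reads the same on both strands, and for the interferon-response element GAAANNGAAA on both strands. Of 32851 promoters, 8.3% held the first and 3.44% the second. The 160 bases before the Socs3 start are shown because this was the only inhibitor called. They lie on the minus strand at chr11:117969367-117969526, and capitals mark a STAT element that begins 154 bases before the start.
Socs3: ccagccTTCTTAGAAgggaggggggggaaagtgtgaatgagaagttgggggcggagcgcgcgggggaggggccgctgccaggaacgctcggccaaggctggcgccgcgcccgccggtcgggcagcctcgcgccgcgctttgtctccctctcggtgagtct
A match describes the letters of the window only, and binding was not analysed here. Cish, an inhibitor not called, also held STAT elements, beginning 0 and 11 bases after its start. Ncf1, Mef2c and Sgk1, called lower, held a STAT element in a promoter, and Ncf1 and Sgk1 an interferon-response element as well. Matches among the named genes were therefore not confined to genes called higher.

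Known STAT3 and cytokine-response targets moved in both directions: of 28 tested, 7 rose and 2 fell, and the median was 0.32 on the log2 scale. Among transcription factors, Bcl3, an atypical member of the IkB family that acts in the nucleus, was counted at 1.27, 0.842 and 0.944 CPM with STAT3, 15.1, 12.3 and 13.1 CPM with Y640F and 5.75 ± 0.780 CPM with empty vector (log2 fold change 3.72 ± 0.16, adjusted p = 4.8e-10). The repressor Bcl6 rose from 2.20 ± 0.393 to 5.16 ± 0.144 CPM. Among survival genes, the kinase gene Pim1 was counted at 51.0, 54.2 and 50.5 CPM with STAT3 and 285, 253 and 269 CPM with Y640F, and its relative Pim2 at 25.3, 26.3 and 24.4 and 149.8, 131 and 137 CPM. Neither overlapped, and both stood above empty vector, at 108 ± 5.18 and 43.9 ± 2.58 CPM. Their log2 fold changes were 2.37 ± 0.05 (adjusted p = 3.4e-12) and 2.46 ± 0.06 (adjusted p = 5.8e-12). Mcl1 and Myc were not called, at -0.19 and -0.27 on the log2 scale. Among secreted products, Il10, an anti-inflammatory cytokine, went from 5 counts over the 3 STAT3 libraries to 113 over the 3 Y640F libraries (log2 fold change 4.35 ± 0.41), and the acute-phase gene Hp rose from 0.164 ± 0.0736 to 0.567 ± 0.0467 CPM, below the 2.74 ± 0.700 CPM of empty vector. The 2 that fell were the D-type cyclins Ccnd1 and Ccnd2, described with the cell cycle below.

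**Figure D2:**
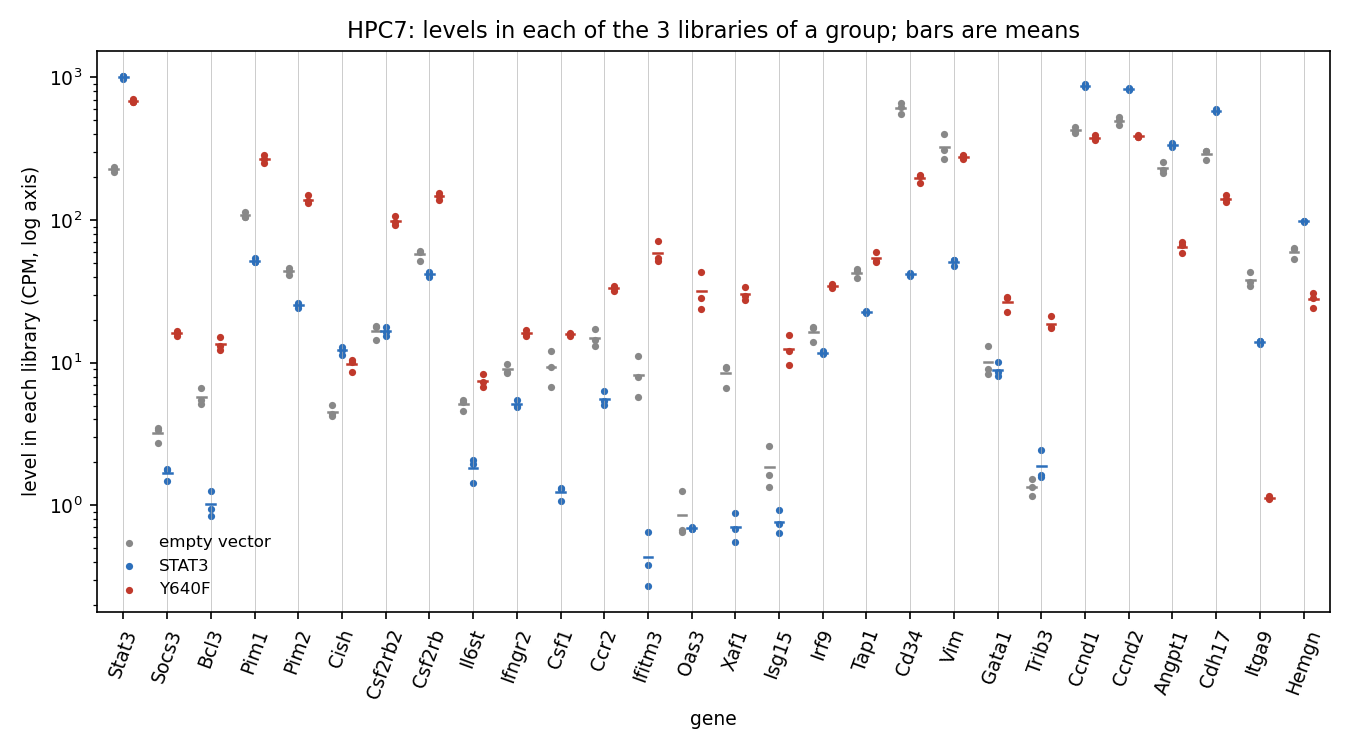
Each point is the level of a gene in 1 library on a log CPM axis, with empty vector in grey, STAT3 in blue, Y640F in red and bars at the means of 3 libraries. Socs3, Pim1 and Csf2rb lie highest with Y640F, Ccnd1 and Cdh17 lie lower with Y640F than with STAT3, and for Vim and Cd34 the empty vector lies above the STAT3 libraries.

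Interferon-stimulated genes were the list with most calls. Of 56 tested members 31 rose and none fell (background 6.17% higher), and their median was 1.36 on the log2 scale. Antiviral effectors led: 24 of 31 rose, with a median of 2.63. Ifitm3, which blocks virus entry at membranes, was counted at 0.649, 0.380 and 0.270 CPM with STAT3, 71.5, 52.0 and 54.0 CPM with Y640F and 5.74, 11.1 and 7.93 CPM with empty vector. Its relative Ifitm1 went from 5 counts over the STAT3 libraries to 1878 over the Y640F libraries. The Y640F levels exceeded every other HPC7 library for both genes. Their log2 fold changes over STAT3 were 7.07 ± 0.27 (adjusted p = 2.1e-10) and 8.41 ± 0.32 (adjusted p = 1.9e-10). The family has close copies, so reads may be shared among them.

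The oligoadenylate synthetases, which sense double-stranded RNA and activate RNase L, rose together. Oas3 was counted at 0.680, 0.679 and 0.708 CPM with STAT3 and 43.0, 23.8 and 28.4 CPM with Y640F, and Oas2 at 0.0309, 0.0272 and 0.101 and 11.7, 7.17 and 6.86 CPM. Library 1 of the Y640F group was highest for both. Log2 fold changes were 5.51 ± 0.27 (adjusted p = 2.0e-09) and 7.29 ± 0.40 (adjusted p = 6.8e-09). Without library 1 of Y640F, or any other 1 library, both genes were still called. Oas1a had 1 count over the STAT3 libraries and 274 over the Y640F libraries, a ratio of 266 (95% exact interval 47.4 to 10556) that covers counting error only. The related Oasl1 and Oasl2 rose by 3.87 and 4.87 on the log2 scale. The Oas1 genes are close copies, so the split of reads among them is uncertain. Oas2, Oas3, Oas1c, Oas1b and Oas1a were adjacent among tested genes, between 120730333 and 120907521 on chromosome 5.

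Other effectors followed. Xaf1, an interferon-induced pro-apoptotic protein, was 0.556, 0.679 and 0.877 CPM with STAT3, 33.9, 27.6 and 29.1 CPM with Y640F and 8.41 ± 1.51 CPM with empty vector (log2 fold change 5.42 ± 0.17, adjusted p = 5.2e-11). Mx2, a dynamin-like GTPase, went from 0.336 ± 0.202 to 10.4 ± 1.42 CPM (log2 fold change 4.99), and Isg15, the ubiquitin-like modifier, from 0.927, 0.734 and 0.641 to 15.6, 9.56 and 12.1 CPM (log2 fold change 4.0 ± 0.25). Ifit1, which binds foreign RNA, rose by 4.68 on the log2 scale, tetherin (Bst2) by 3.35 and viperin (Rsad2) by 2.93. The large ubiquitin ligase gene Rnf213 was more abundant, at 72.9, 72.0 and 64.1 CPM with STAT3 and 222, 185 and 216 CPM with Y640F (1.57 ± 0.07). Rtp4 had 3 counts with STAT3 and 137 with Y640F, a ratio of 44.4 (95% exact interval 14.9 to 218). Samhd1 lay at the 2-fold limit (1.00) and fell short of it with relative-log-expression scaling (0.99), with DESeq2 (0.99), without STAT3 library 2 (0.99) or Y640F library 1 (0.99), and after the median of chromosome 2, where it lies, was subtracted (0.57).

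Fewer regulators of the same programme were called. Of 7 tested sensors 2 rose: Ddx58, which encodes the RNA sensor RIG-I, from 19.4 ± 1.13 to 68.2 ± 8.11 CPM, and Dhx58 from 2.11 ± 0.130 to 6.01 ± 0.489 CPM. Ifih1, the MDA5 gene, had a log2 fold change of 0.67. Of 7 tested transcription factors only Irf9 rose, from 11.6, 12 and 11.7 CPM with STAT3 to 35.4, 34.6 and 33.4 CPM with Y640F (log2 fold change 1.55 ± 0.08). Irf1 was 15.7 ± 0.492 and 24.1 ± 0.640 CPM, and Irf7 did not pass the filter. Among 11 tested enzymes of ubiquitin-like conjugation and ADP-ribosylation 4 rose, including the Isg15-conjugating enzyme Ube2l6 (1.89 ± 0.348 to 16.9 ± 1.60 CPM), Parp14 (5.48 ± 0.680 to 25.1 ± 3.52 CPM) and Trim30a (35.8 ± 1.94 to 111 ± 13.3 CPM). Usp18, which removes Isg15, was 105 ± 2.66 and 125 ± 14.7 CPM and was not called. Over the tested members, CPM summed to 2219 to 2426 in the Y640F libraries and to 1237 to 1259 in the STAT3 libraries. Of the 31 called members, 29 were highest in Y640F library 1. Without that library 30 of the members were called.

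**Figure D3:**
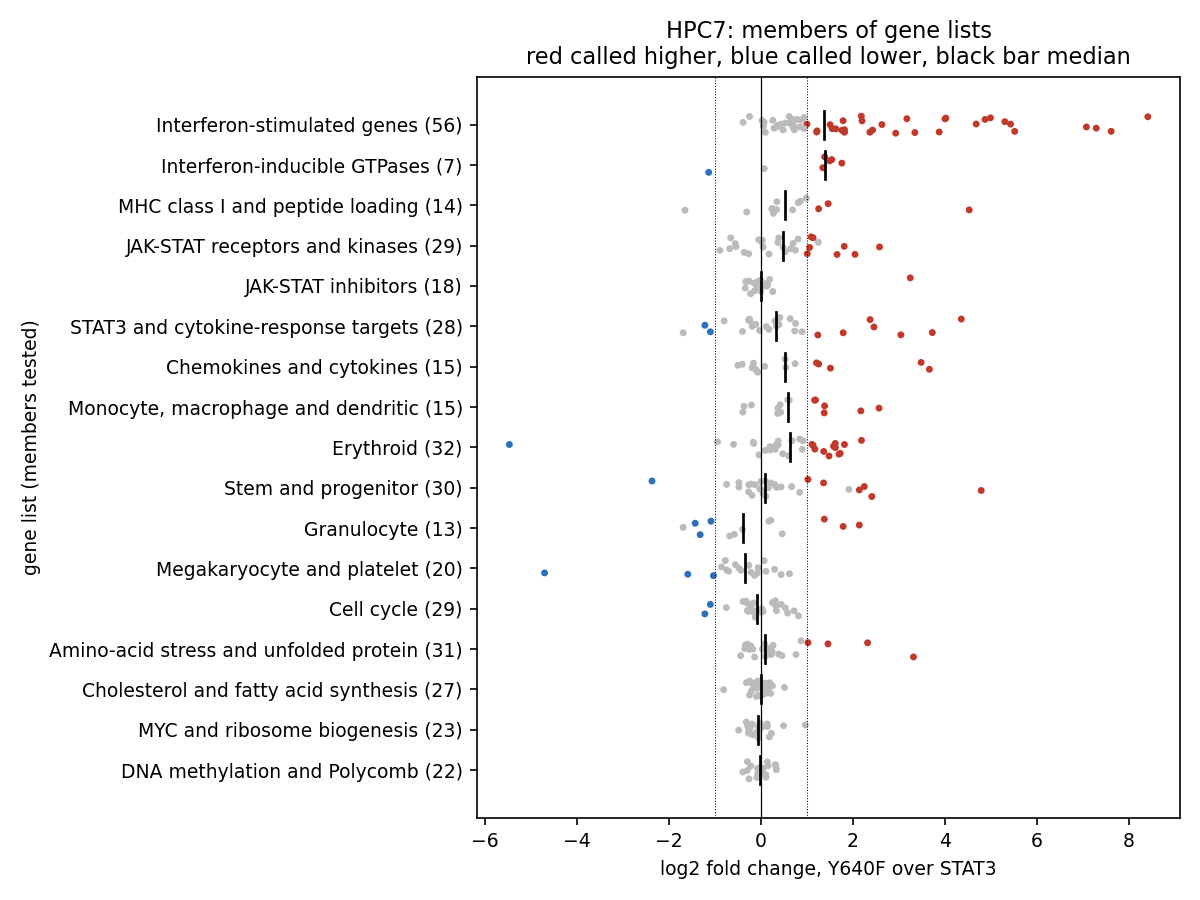
Each point is a tested member of a gene list, placed by its log2 fold change of Y640F over STAT3, in red where called higher, blue where called lower and grey otherwise, with the list's median as a black bar. Interferon-stimulated genes reach furthest to the right with a median of 1.36, while Polycomb and DNA methylation genes, cholesterol genes and MYC-related genes lie close to 0 with no called member.

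Other interferon-induced families are set out next. Of 7 tested guanylate-binding and immunity-related GTPases 5 rose and 1 fell. Irgm2 was 3.37, 2.83 and 3.10 CPM with STAT3 and 9.60, 8.68 and 8.78 CPM with Y640F (log2 fold change 1.54 ± 0.11), Igtp 3.43, 3.15 and 3.37 and 9.80, 8.25 and 8.04 CPM (1.39 ± 0.11), and Irgm1 rose by 1.35. Ifi47, a GTPase of the same kind, fell from 17.1 ± 1.06 to 7.77 ± 0.515 CPM. Among Schlafen genes, regulators of growth and translation, 3 of 4 tested rose, with Slfn5 at 9.46, 6.36 and 8.26 CPM with STAT3 and 63.4, 51.7 and 53.4 CPM with Y640F (log2 fold change 2.81 ± 0.15) and Slfn2 going from 0.146 ± 0.0609 to 3.10 ± 0.471 CPM. None of 5 tested p200 genes, which encode DNA sensors, was called with edgeR, although all 5 were higher at an unadjusted p under 0.05 (29.9% of all tested genes). With DESeq2 the Schlafen and p200 genes together had 2 higher calls. Gbp2 and Gbp3, of a family with near-identical copies, rose by 1.76 and 1.5 on the log2 scale.

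Promoter windows of called members are shown for the elements they hold, with capitals marking matches. In Irgm2 (plus strand, chr11:58214887-58214976) and Igtp (plus strand, chr11:58199466-58199555) a STAT element stands just before an interferon-response element.
Irgm2: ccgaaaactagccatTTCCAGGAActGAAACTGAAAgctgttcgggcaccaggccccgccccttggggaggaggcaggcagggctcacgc
Igtp: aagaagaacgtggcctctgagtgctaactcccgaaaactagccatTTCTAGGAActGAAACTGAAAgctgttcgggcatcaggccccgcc
Oas1a (minus strand, chr5:120907526-120907635) holds a STAT element and 2 overlapping interferon-response elements near its start, Oas3 (minus strand, chr5:120777660-120777749) holds 1 such element, and Isg15 (minus strand, chr4:156200819-156200908) holds overlapping copies.
Oas1a: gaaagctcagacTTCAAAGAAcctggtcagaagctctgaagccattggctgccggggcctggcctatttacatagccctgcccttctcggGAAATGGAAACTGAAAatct
Oas3: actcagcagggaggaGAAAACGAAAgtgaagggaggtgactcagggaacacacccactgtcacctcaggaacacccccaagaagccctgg
Isg15: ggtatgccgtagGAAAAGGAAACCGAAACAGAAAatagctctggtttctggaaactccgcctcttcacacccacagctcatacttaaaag
The windows were chosen after their matches and values were seen.

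The called antigen presentation genes of class I were loading and regulator genes. Of 14 tested class I genes 3 rose and none fell, and the median was 0.52 on the log2 scale. Nlrc5, the transcriptional regulator of class I genes, had 6 counts over the STAT3 libraries and 150 over the Y640F libraries, but empty vector stood higher than both at 9.15 ± 1.85 CPM against 1.52 ± 0.620 CPM with Y640F. Psmb8, an immunoproteasome subunit, was 12.2, 12.7 and 12.2 CPM with STAT3 and 35.5, 33.4 and 33.5 CPM with Y640F (log2 fold change 1.46 ± 0.07), with empty vector at 31.4 ± 2.65 CPM. Tap1, the peptide transporter, rose from 22.7 ± 0.348 to 54.2 ± 5.03 CPM. The chains themselves were not called: B2m was 197 ± 2.92 CPM with STAT3 and 318 ± 7.48 CPM with Y640F, and H2-D1 42.6 ± 1.84 and 74.9 ± 5.21 CPM. H2-K1, a class I chain, was counted at 25.6 ± 5.83 CPM with empty vector but at 0.134 ± 0.0312 CPM with STAT3 and 0.0341 ± 0.0591 CPM with Y640F, so it was nearly absent from both groups compared. Of 8 tested class II genes, H2-DMa, which loads peptides, rose from 5.49 ± 0.713 to 12.7 ± 0.629 CPM. The invariant chain gene Cd74 was 0.737 ± 0.308 and 1.45 ± 0.156 CPM and was not called, but passed without STAT3 library 1 (1.37), without Y640F library 1 (1.03) or 3 (1.02), and with chromosome medians subtracted (1.05). The class II regulator Ciita did not pass the filter.

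Of 15 tested chemokine and cytokine genes 5 rose and none fell. Csf1, the macrophage growth factor, was counted at 1.3, 1.33 and 1.08 CPM with STAT3 and 15.9, 16.1 and 15.3 CPM with Y640F (log2 fold change 3.66 ± 0.19, adjusted p = 4.2e-09), with empty vector at 12, 9.33 and 6.76 CPM. The T-cell and monocyte attractant Ccl5 was 0.773, 0.679 and 0.708 and 9.30, 7.17 and 7.78 CPM (log2 fold change 3.48 ± 0.19), with 1.42 ± 0.451 CPM in empty vector. Ccl3, a macrophage attractant, rose from 2.75 ± 0.134 to 7.86 ± 0.792 CPM, with 7.89 ± 1.78 CPM in empty vector. All 3 genes stood higher with empty vector than with STAT3, and for Ccl3 empty vector overlapped Y640F. The fifth, Ccl4, lost its call without STAT3 library 2 or 3 or Y640F library 1 or 3 (1.10, 1.02, 1.05 and 1.14 on the log2 scale).

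Of 8 tested chemokine receptors 3 rose and 1 fell, and of 14 growth-factor and interleukin receptors 2 rose. Ccr2, the monocyte-recruiting receptor, was 6.37, 5.41 and 5.03 CPM with STAT3 and 31.8, 33.5 and 34.4 CPM with Y640F (log2 fold change 2.57 ± 0.10). Il1r1, the signalling receptor of interleukin-1, had 2 counts with STAT3 and 60 with Y640F, a ratio of 29.2 (95% exact interval 7.73 to 246), and the decoy receptor Il1r2 rose from 1.04 ± 0.0818 to 3.29 ± 0.396 CPM. Of 17 tested NF-kB genes 2 rose and none fell (11.8% higher, against 6.17% of all tested genes). They were the kinase gene Ikbke, 0.200 ± 0.0947 to 1.95 ± 0.220 CPM, and the adaptor gene Traf1, 0.899 ± 0.280 to 2.35 ± 0.310 CPM. Traf1 lies on chromosome 2 and fell short of 2-fold once that chromosome's median was subtracted (0.96). None of 8 tested inflammasome genes was called with edgeR or DESeq2, while 3 were higher and 1 lower at an unadjusted p under 0.05 (29.9% and 27% of all tested genes). In that list 1 gene was called higher without STAT3 library 1 or with chromosome medians subtracted. Pycard, the inflammasome adaptor, was nearly absent with STAT3 (0.0909 ± 0.0292 CPM) and Y640F (0.0367 ± 0.0385 CPM), against 19.8 ± 7.46 CPM with empty vector.

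Of 18 tested transcription factors of the stem and progenitor list 1 rose, Gfi1, at under 1 CPM, and none fell. The share higher was 5.56%, against 6.17% of all tested genes. Runx1 was 57.5 ± 1.09 and 50.4 ± 1.66 CPM. Of 12 tested surface and other genes of the same list 5 rose and 1 fell. Ly6a, the Sca-1 antigen, was 0.433, 0.272 and 0.236 CPM with STAT3, 10.5, 6.62 and 9.17 CPM with Y640F and 0.982, 1.25 and 0.703 CPM with empty vector (log2 fold change 4.79 ± 0.26, adjusted p = 6.7e-09). Cd34, a progenitor sialomucin, was 42.8, 41.1 and 40.8 CPM with STAT3, 207, 182 and 203 CPM with Y640F and 664, 623 and 558 CPM with empty vector. Ly6a was therefore highest with Y640F, whereas for Cd34 the STAT3 libraries were lowest and the Y640F libraries lay between. The log2 fold change of Cd34 was 2.25 ± 0.07 (adjusted p = 3.0e-11). Procr, the endothelial protein C receptor, rose from 2.59 ± 0.355 to 13.8 ± 1.14 CPM, with empty vector at 15.1 ± 1.29 CPM. Angpt1, the ligand of Tie2, fell from 346, 333 and 324 CPM with STAT3 to 58.5, 69.7 and 66.6 CPM with Y640F (log2 fold change -2.36 ± 0.07, adjusted p = 3.0e-11), and empty vector was 230.4 ± 21.5 CPM. Flt3 rose by 1.02 at under 1 CPM and was not called without STAT3 library 1 (0.87) or Y640F library 3 (0.81). None of 6 tested Hox genes was called with edgeR, with DESeq2 or with any other alternative run, and none had an unadjusted p under 0.05.

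Myeloid genes did not move as a block. Of 13 tested granulocyte genes 3 rose and 3 fell, with a median of -0.40. Mpo, the granule peroxidase, fell from 261, 273 and 281 to 139, 119 and 127 CPM (log2 fold change -1.08 ± 0.19, adjusted p = 2.7e-04), Ncf1, an oxidase subunit, from 44.9, 45.1 and 45.5 to 17.2, 17.5 and 15.8 CPM (-1.43 ± 0.05), and Cebpa, the granulocyte factor, from 2.04 ± 0.262 to 0.824 ± 0.0984 CPM. The protease gene Prtn3 rose from 3.80 ± 0.0217 to 9.89 ± 0.791 CPM. Of 15 tested monocyte, macrophage and dendritic genes 6 rose and none fell, with a median of 0.58. Besides Ccr2, the Fc receptor gene Fcgr1 rose from 4.61, 4.27 and 4.15 to 11.2, 11.6 and 11.1 CPM (1.38 ± 0.10) and the endotoxin receptor Tlr4 from 2.92 ± 0.283 to 6.65 ± 0.469 CPM, while Itgam, Adgre1 and Cd14 rose at low levels, with Y640F means of 3.71, 0.660 and 0.588 CPM. Cd14 lost its call without STAT3 library 2 or 3 or Y640F library 2 (0.94, 1.33 and 1.28). Surface receptors of myeloid cells named for their values included Cd53, a tetraspanin (2.72, 2.17 and 2.23 CPM with STAT3 and 29.2, 20.4 and 26.6 CPM with Y640F, 3.42 ± 0.15), Cd33 (1.99 ± 0.438 to 9.82 ± 0.081 CPM), Cd38 (1.54 ± 0.0767 to 11.1 ± 1.39 CPM), Lilr4b (11.1 ± 1.12 to 47.2 ± 1.25 CPM) and the ATP-gated channel P2rx7 (8.91 ± 0.172 to 33.6 ± 1.51 CPM). Empty vector lay near Y640F for Cd53 and Cd33, at 18.3 ± 1.65 and 8.60 ± 0.518 CPM, and near STAT3 for Lilr4b and P2rx7, at 13.7 ± 0.643 and 8.14 ± 0.517 CPM. Over the tested monocyte, macrophage and dendritic members CPM summed to 183 to 187 in the Y640F and 154 to 158 in the STAT3 libraries. In bulk RNA, fewer or more cells of a type and a change in RNA per cell cannot be told apart.

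Of 32 tested erythroid genes 12 rose and 1 fell, with a median of 0.64. Gata1, the erythroid and megakaryocytic master factor, was 8.59, 10.1 and 8.06 CPM with STAT3, 22.8, 28.9 and 28.4 CPM with Y640F and 10.2 ± 2.57 CPM with empty vector (log2 fold change 1.58 ± 0.14, adjusted p = 6.6e-07). Klf1 rose by 1.11 and was not called without STAT3 library 1 (0.96). Of 16 globin and membrane genes 9 rose. Epb42, protein 4.2, went from 0.773, 1.14 and 0.978 to 4.07, 4.41 and 4.76 CPM (2.19 ± 0.16), Rhag from 1.70, 2.69 and 1.92 to 6.00, 7.39 and 7.63 CPM (1.72 ± 0.16) and Ermap from 2.92 ± 0.721 to 9.01 ± 1.66 CPM. The water channel Aqp1 fell, from 60 counts over the STAT3 libraries to 1 over the Y640F libraries, a STAT3 over Y640F ratio of 61.7 (95% exact interval 10.7 to 2479). None of 9 haem synthesis genes was called with edgeR, although 7 were higher and 1 lower at an unadjusted p under 0.05 (29.9% and 27% of all tested genes), and Zfpm1, the Gata1 cofactor, was 248 ± 6.43 and 266 ± 4.44 CPM. Hemgn, a nuclear protein of erythroid and progenitor cells, fell from 98.8, 97.4 and 97.7 to 24.2, 30.6 and 28.5 CPM (-1.82 ± 0.08). The globin and membrane list summed to 1677 to 1794 CPM in the Y640F libraries and to 3159 to 3321 CPM in the STAT3 libraries, so its sum was lower with Y640F although more of its members rose. Car2, a carbonic anhydrase that other progenitors also carry, made up most of that sum, at 3211, 3129 and 3299 CPM with STAT3 and 1675, 1732 and 1613 CPM with Y640F (-0.94 ± 0.04, adjusted p = 5.3e-10, short of 2-fold).

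Megakaryocyte and platelet genes included 3 lower and no higher calls among 20 tested, with a median of -0.35. P2ry1, a platelet receptor for ADP, went from 2.53, 3.23 and 2.93 to 0.0333, 0.215 and 0.0768 CPM (-4.70 ± 0.32), and the neighbouring platelet chemokines Ppbp and Pf4 from 1.99 ± 0.247 to 0.660 ± 0.0396 CPM and from 129 ± 2.27 to 63.3 ± 3.47 CPM. Pf4 lay at the 2-fold limit and was not called without Y640F library 1. Itga2b, integrin alpha IIb, was 457 ± 14.5 and 253 ± 3.90 CPM (log2 fold change -0.85 ± 0.04). Of 9 tested mast cell, basophil and eosinophil genes 2 rose: Mitf, the mast cell and melanocyte factor, from 0.745 ± 0.218 to 7.54 ± 0.152 CPM, and Hdc, which makes histamine, from 0.487 ± 0.159 to 1.39 ± 0.139 CPM.

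Most markers of lymphoid and stromal cells were too low to test. Of 16 B-lymphoid genes 14 did not pass the filter, Cd79a and Pax5 among them, and the 2 tested members summed to 5.66 to 7.27 CPM with Y640F and 6.52 to 7.52 CPM with STAT3. Of 19 T and natural killer genes 7 were tested and 3 rose, with sums of 28.0 to 28.7 and 22.3 to 23.9 CPM. Cd3d, Cd3e, Cd3g and Cd8a did not pass the filter. Cd4, the T-helper co-receptor that some progenitors also carry, rose from 0.185, 0.272 and 0.405 to 2.73, 2.94 and 3.99 CPM (3.50 ± 0.26) together with its chromosome 6 neighbours P3h3 (0.467 ± 0.138 to 6.93 ± 0.663 CPM) and Gpr162 (0.385 ± 0.141 to 5.09 ± 0.449 CPM). Gata3 rose from 2.50 ± 0.325 to 5.61 ± 0.353 CPM and, lying on chromosome 2, was short of 2-fold after subtraction of that chromosome's median (0.72). Of 15 stromal and endothelial genes 3 were tested. Pdgfrb, a growth-factor receptor of mesenchymal cells, was 47.0, 46.5 and 46.8 CPM with STAT3 and 101, 102 and 96.5 CPM with Y640F, and the endothelial cadherin Cdh5 0.563 ± 0.121 and 2.07 ± 0.223 CPM. Pecam1, which blood and endothelial cells both carry, was 139.5 ± 1.29 and 117 ± 2.82 CPM. The collagen genes Col1a1, Col1a2 and Col3a1 did not pass the filter. The part of other cell types in the results was not tested.

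Cell-cycle genes were not called, apart from the D-type cyclins. Of 29 tested none rose and 2 fell. Ccnd1, which drives entry into S phase with Cdk4 and Cdk6, was among the most abundant called genes, at 894, 877 and 854 CPM with STAT3 and 396, 361 and 374 CPM with Y640F. Ccnd2 was 829.7, 813 and 845 and 383, 396 and 384 CPM. Empty vector, at 427 ± 21.4 and 498 ± 30.5 CPM, lay just above the Y640F libraries and well below the STAT3 libraries for both. Log2 fold changes were -1.22 ± 0.05 (adjusted p = 1.9e-10) and -1.10 ± 0.04 (adjusted p = 3.7e-10). Ccnd3 was 282 ± 6.81 and 356 ± 17.4 CPM, and the inhibitor Cdkn1a 50.4 ± 1.88 and 88.9 ± 4.62 CPM (log2 fold change 0.82), neither called. None of 23 MYC and ribosome biogenesis genes was called with edgeR or DESeq2, with a median of -0.06, while 6 were higher and 11 lower at an unadjusted p under 0.05 (29.9% and 27% of all tested genes). In that list 1 gene was called higher without STAT3 library 2, without Y640F library 2 or with chromosome medians subtracted.

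Of 19 tested apoptosis genes 2 rose, both pro-apoptotic BH3-only members: Bmf from 2.04, 1.52 and 1.69 to 5.73, 5.52 and 4.56 CPM (1.59 ± 0.15) and Bcl2l11, which encodes Bim, from 14.1, 13.1 and 12.4 to 29.9, 27.9 and 29.4 CPM (1.14 ± 0.10). The share higher was 10.5%, against 6.17% of all tested genes. Both genes lie on chromosome 2, where 9.62% of tested genes were called higher. After subtraction of that chromosome's median Bcl2l11 was short of 2-fold (0.70). Of 16 p53 targets 3 rose, including Zmat3 (0.764 ± 0.205 to 2.91 ± 0.603 CPM) and the death receptor Tnfrsf10b (1.47 ± 0.158 to 5.22 ± 0.244 CPM).

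Of 15 tested genes of the ATF4 branch, which answers amino-acid shortage, 4 rose and none fell. Trib3, a pseudokinase, was 2.44, 1.63 and 1.59 CPM with STAT3, 21.2, 17.6 and 17.7 CPM with Y640F and 1.35 ± 0.186 CPM with empty vector (log2 fold change 3.32 ± 0.14, adjusted p = 5.9e-10), and Ddit3, which encodes CHOP, was 8.72, 8.99 and 8.91 and 25.4, 24.2 and 23.6 CPM (1.46 ± 0.07). Sesn2 lay at the limit (1.02) and was not called without Y640F library 1 (0.98). Atf4 itself was 203 ± 4.86 and 215 ± 1.49 CPM. None of 16 chaperone-branch genes was called with edgeR, with a median of -0.25, while 3 were higher and 13 lower at an unadjusted p under 0.05 (29.9% and 27% of all tested genes). Metal- and oxidant-responsive genes chosen after their values were seen also rose: metallothionein 1 (Mt1) from 1.98, 1.79 and 1.38 to 25.5, 24.6 and 28.3 CPM (3.92 ± 0.16) and haem oxygenase 1 (Hmox1) from 5.84, 6.00 and 5.36 to 23.9, 20.7 and 19.7 CPM (1.89 ± 0.11).

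Of 25 glycolysis and hypoxia genes 2 rose and 1 fell. The share higher was 8%, near the 6.17% of all tested genes, of which 1.73% were lower. Egln1, the oxygen sensor that marks HIF-1 alpha for decay, was 10.8, 10.9 and 10.6 CPM with STAT3 and 54.1, 57.3 and 56.8 CPM with Y640F (2.38 ± 0.07), and Pfkp, a phosphofructokinase, 11.1, 10.4 and 13 and 40.7, 33.2 and 36.8 CPM, with empty vector higher still at 51.7 ± 1.83 CPM. Ndrg1, a stress-induced gene, fell from 398, 399 and 409 to 136, 149 and 141 CPM (-1.5 ± 0.09). Bnip3, a common hypoxia target, was 24.2 ± 1.28 and 23.3 ± 0.780 CPM, with overlapping libraries. No member of the cholesterol and fatty acid list (27 tested) or of the DNA methylation and Polycomb list (22 tested) was called with edgeR or DESeq2, and both medians were -0.01. At an unadjusted p under 0.05, 4 and 5 of them were higher and 6 and 5 lower, where 29.9% and 27% of all tested genes were. In the immediate-early and heat-shock list 1 of 17 rose, the co-chaperone Bag3 (18.9 ± 0.879 to 48.2 ± 3.69 CPM), and 2 fell, among them Egr3 (6.29 ± 0.640 to 1.5 ± 0.348 CPM). The share higher in that list was 5.88%, near that of all tested genes.

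Of 26 tested integrin and adhesion genes 3 rose and 2 fell (11.5% higher, against 6.17% of all tested genes). Itga9, an integrin alpha chain, was 14.1, 14.1 and 13.5 CPM with STAT3 and 1.13, 1.16 and 1.10 CPM with Y640F, and 37.0, 43.1 and 34.2 CPM with empty vector. The 3 groups did not overlap, with STAT3 in the middle (log2 fold change -3.61 ± 0.12, adjusted p = 9.8e-11). The tetraspanin Cd82 rose from 7.63, 8.40 and 8.13 to 33.0, 31.8 and 30.6 CPM (1.98 ± 0.07). Vim, the intermediate filament vimentin, was 52.6, 52.7 and 47.6 CPM with STAT3, 288, 268 and 280.1 CPM with Y640F and 269, 401 and 309 CPM with empty vector. Its log2 fold change was 2.45 ± 0.11, and the STAT3 libraries alone stood apart.

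The largest decreases among genes of at least 5 CPM included Itga9 and those given next. St7 was 15.4, 16.1 and 16.5 CPM with STAT3, 0.167, 0.429 and 0.154 CPM with Y640F and 9.99 ± 2.97 CPM with empty vector (log2 fold change -6.00 ± 0.29, adjusted p = 1.7e-09). Fam171a1 was 5.5, 5.08 and 5.73 and 0.167, 0.184 and 0.128 CPM (-5.07 ± 0.31), and Pip5k1b, a kinase that makes phosphatidylinositol bisphosphate, 5.56, 6.03 and 6.11 and 0.200, 0.766 and 0.256 CPM (-3.86 ± 0.29). Gcsam, a regulator of lymphocyte motility, fell by 3.04 on the log2 scale from 28.3 ± 0.750 to 3.44 ± 0.460 CPM. Gpsm2, which orients the mitotic spindle, went from 14.0 ± 1.01 to 1.86 ± 0.440 CPM, Smco4 from 7.30 ± 0.238 to 0.999 ± 0.183 CPM, and the haem-binding membrane protein gene Pgrmc1 from 39.5 ± 1.11 to 5.73 ± 1.27 CPM. For Pgrmc1, Fam171a1 and Smco4 the empty vector stood above both, at 75.0, 7.25 and 10.1 CPM.

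The 5 most abundant called genes were all lower with Y640F. Besides Ccnd1, Ccnd2 and Ndrg1 they were Cdh17, a cadherin, at 579, 570.1 and 597 CPM with STAT3 and 134, 149 and 141 CPM with Y640F (-2.04 ± 0.06), and Akap13, an anchor for kinase A with nucleotide exchange activity, at 567, 553 and 538 and 202, 198 and 203 CPM (-1.46 ± 0.04). The transcription factor gene Tox, named for its value, was 69.1, 70.4 and 69.0 and 18.4, 19.2 and 18.9 CPM (-1.88 ± 0.05). Stap1, an adaptor of tyrosine kinase signalling, went from 141 ± 1.06 to 44.8 ± 2.19 CPM, and Mef2c from 99.6 ± 4.45 to 43.9 ± 1.84 CPM. Ptgs2, cyclo-oxygenase 2, fell from 27.4 ± 1.3 to 8.15 ± 1.08 CPM. Sgk1, a kinase of salt and glucocorticoid responses, went from 76 counts over the STAT3 libraries to 1 over the Y640F libraries, a STAT3 over Y640F ratio of 78.2 (95% exact interval 13.6 to 3129).

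Large increases outside the interferon list included Tcp11l1, 0.155, 0.0815 and 0.101 CPM with STAT3 and 10.4, 7.36 and 8.60 CPM with Y640F (log2 fold change 6.25 ± 0.25). The retinoid receptor gene Rxra was 4.61, 4.10 and 3.61 CPM with STAT3 and 39.9, 40.0 and 38.4 CPM with Y640F (3.26 ± 0.09), and the Notch ligand Jag1 1.27, 1.79 and 1.55 and 12.2, 9.32 and 10.2 CPM (2.77 ± 0.16). The platelet-derived growth factor gene Pdgfa went from 0.195 ± 0.0992 to 4.72 ± 0.398 CPM and the kinase gene Nek6 from 75.8 ± 1.36 to 239.7 ± 7.77 CPM, with Notch1 going from 11.7 ± 1.16 to 32.3 ± 3.15 CPM. Apobec1, a cytidine deaminase, and Lbp, the endotoxin-binding protein gene, had 5 and 5 counts over the STAT3 libraries against 393 and 337 with Y640F. Empty vector, at 5.39 ± 0.407 and 2.15 ± 0.243 CPM, lay near the Y640F means of 3.88 and 3.31 CPM. Pik3r5, a regulatory subunit of PI3-kinase gamma, had 1 count with STAT3 and 160 with Y640F, a ratio of 155 (95% exact interval 27.5 to 6180), and its Y640F libraries spread from 0.521 to 3.00 CPM. Empty vector lay between the 2 groups for Rxra (17.9 ± 2.05 CPM) and Jag1 (2.49 ± 0.413 CPM). Tcp11l1, Rxra, Jag1, Nek6, Notch1 and Lbp lie on chromosome 2, where the median of tested genes was raised, as described below.

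Some genes were at 0 in 1 group: 3 called higher had no count in the STAT3 libraries and 3 called lower had none in the Y640F libraries. With the zero replaced by 3 counts over the group, the chromatin regulator gene Arid5b was at least 4.86-fold higher with 15 counts, Gm19434 at least 16.8-fold and 9130208D14Rik at least 13.6-fold higher. Fgf14, an intracellular fibroblast growth factor relative, had 177 counts with STAT3 and was at least 60.7-fold lower with Y640F, Itgbl1 was at least 27.8-fold lower and Ydjc at least 8.57-fold lower. Fgf14 and Itgbl1 are adjacent on chromosome 14 and were also at 0 in all empty-vector libraries, so their RNA was seen only in the STAT3 libraries of HPC7.

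Called genes stood side by side at several places. Runs of at least 3 tested neighbours called in 1 direction numbered 18 higher, holding 58 genes, and 4 lower, holding 13 genes. They included gene families, such as the Oas run, Gbp3, Gbp2b and Gbp2 on chromosome 3 and Trim30b, Trim30a and Trim30d on chromosome 7, and unrelated neighbours, such as Tmtc4, Itgbl1 and Fgf14, which were lower between 122918971 and 124677127 on chromosome 14. Il1r2, Il1r1 and Il1rl2 formed a higher run between 40074079 and 40367562 on chromosome 1. Overlap of neighbouring transcripts was not tested.

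Chromosome 2 stood apart over most of its length. The median over its 1008 tested genes was 0.44 on the log2 scale, and 86.2% lay above 0. On this chromosome 97 were called higher (9.62%) and 8 lower. The 20-Mb blocks with at least 20 tested genes had medians from 0.20 to 0.55 over the first 9 blocks and -0.17 in the last. Elsewhere the medians of the other autosomes ran from -0.15 on chromosome 4 to 0.13 on chromosome 19. Their single blocks went further, from -0.26 on chromosome 4 to 0.28 on chromosome 19, with the last block of chromosome 12 at 0.27. The last 3 blocks of the X chromosome were each at 0.34 or 0.35. B2m, Ifih1, Vim, Cd82, Procr, Ube2l6 and Trib3, named above, also lie on chromosome 2. So do Tcp11l1, Rxra, Jag1, Nek6, Notch1 and Lbp, given among the large increases. With its median subtracted B2m and Ifih1 stood at 0.26 and 0.23 on the log2 scale, and the others stayed above 2-fold. Of these Notch1 came closest to that limit, at 1.03. Without chromosome 2, 685 genes were higher and 211 lower. Of the called interferon-stimulated genes 29 of 31 lay on other chromosomes. Chromosome copy number was not measured here, and its part in these values was not tested.

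**Figure D4:**
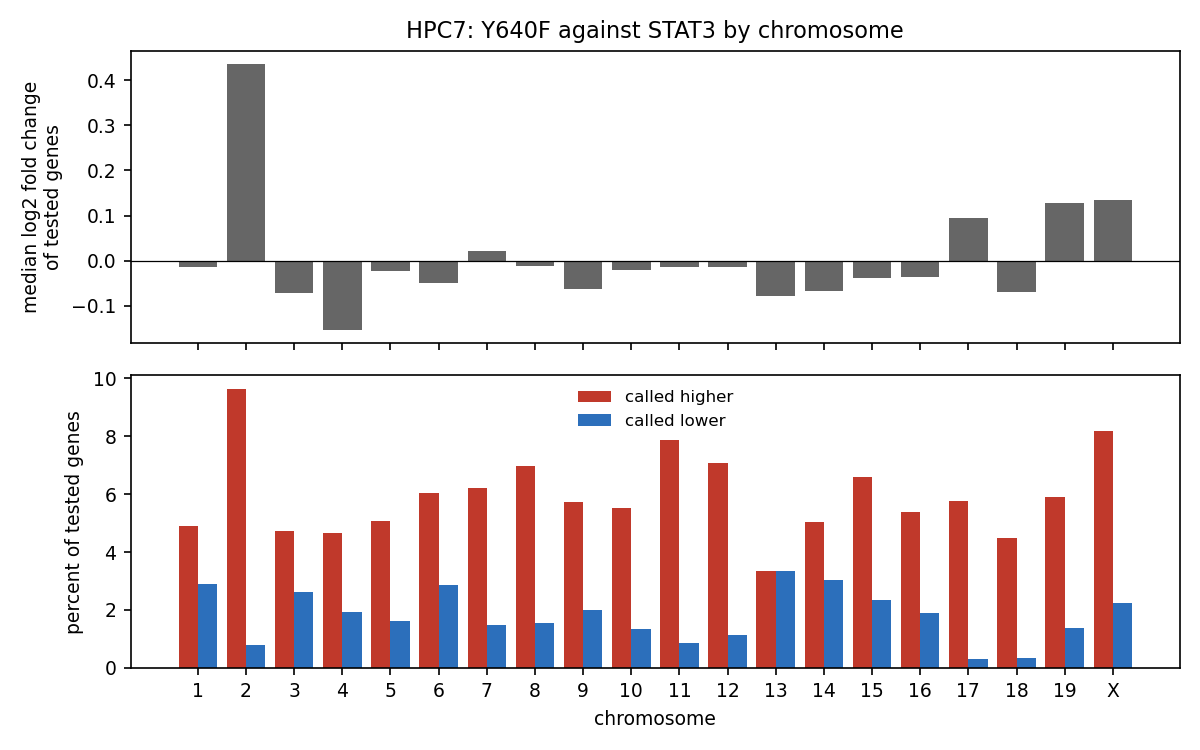
Upper bars give the median log2 fold change of tested genes on each autosome and the X chromosome, and lower bars the percent of them called higher (red) and lower (blue). Among the chromosomes drawn, which leave out Y and its 5 tested genes, chromosome 2 has the tallest upper bar, at 0.44, and the tallest red bar, at 9.62%.

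Y-linked genes separated the STAT3 libraries from the rest. Ddx3y was 13.2, 12.3 and 11.6 CPM with STAT3, 115, 121 and 127 CPM with Y640F and 114, 121 and 123 CPM with empty vector. Uty was 3.03, 3.12 and 3.24, then 35.2, 37.8 and 39.3 and 30.5, 28.1 and 34.6 CPM in the same order, and Eif2s3y 6.98 ± 0.437, 62.4 ± 4.52 and 58.1 ± 3.42 CPM. Empty vector and Y640F were close for all 3 genes, and Y640F exceeded STAT3 by 3.29 ± 0.06 (Ddx3y), 3.58 ± 0.09 (Uty) and 3.16 ± 0.08 (Eif2s3y) on the log2 scale. All 3 STAT3 libraries shared this level, which set them apart from the other HPC7 cells in a feature that the labels do not mention. Its part in the other differences was not tested.

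HPCLSK gave the same contrast in libraries that the HPC7 comparison did not use, although line and sequencing run cannot be told apart there, per the file headers. In HPCLSK, 1018 genes were higher (8.11%) and 765 lower (6.09%) of 12552 tested, 14.2% called in all. Stat3 RNA was higher with Y640F there (593, 549 and 632 CPM with STAT3 and 1839.7, 1877 and 1928 CPM with Y640F), the opposite order to HPC7. Of the HPC7 higher calls tested in both lines 174 of 576 (30.2%) were also higher in HPCLSK, which is 28.2% of the 616 higher calls of HPCLSK, where 5.43% of all genes tested in both were higher. A further 60 (10.4%) were lower in HPCLSK. Of the HPC7 lower calls 39 of 154 (25.3%) were also lower, which is 7.17% of the HPCLSK lower calls, where 4.80% of all genes tested in both were lower, and 19 (12.3%) were higher.

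**Figure D5:**
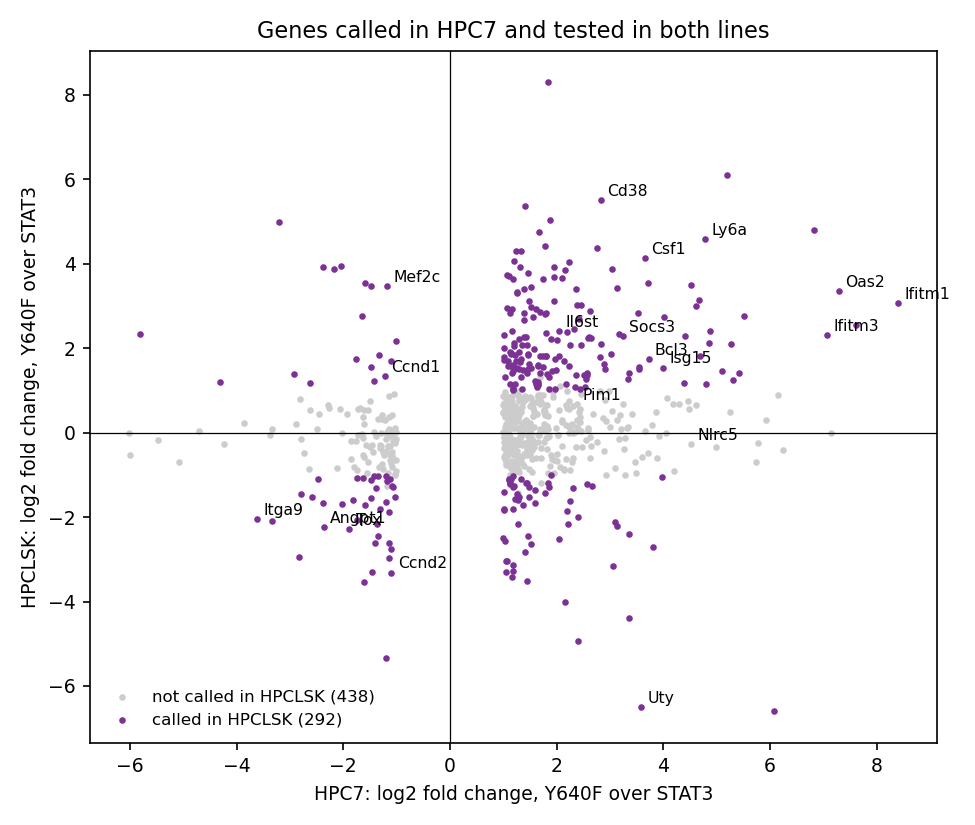
Each point is a gene called in HPC7 and tested in both lines, with its log2 fold change of Y640F over STAT3 in HPC7 on the x axis and in HPCLSK on the y axis, in purple where it was also called in HPCLSK. Ly6a, Csf1 and Oas2 lie high on both axes, Itga9 and Angpt1 low on both, and Uty lies at the lower right, higher in HPC7 and lower in HPCLSK.

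Genes called in the same direction in both lines included signalling genes. Csf1 was 23.7, 41.7 and 18.2 CPM with STAT3 and 678, 449 and 409.7 CPM with Y640F in HPCLSK (log2 fold change 4.14 ± 0.28), and Ly6a 1.98 ± 0.317 and 49.2 ± 3.71 CPM (4.58 ± 0.16). Il6st rose by 2.40, Ifngr2 by 1.61, Csf2rb by 1.39 and Csf2rb2 by 1.37 there. Angpt1 fell in HPCLSK too, with a log2 fold change of -2.23 ± 0.18, and so did Ccnd2 (-3.31 ± 0.15) and Hemgn (-1.58 ± 0.17). Other genes went opposite ways. Ccnd1 was low in HPCLSK, 0.595 ± 0.370 and 1.70 ± 0.106 CPM, and rose there (1.34), and Egr3 (3.96), Ncf1 (1.23) and Mef2c (3.48) rose as well. Armcx4 (-2.16), higher with Y640F in HPC7, fell.

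The size of the Y640F effect was compared between the lines for 10 genes, as the HPCLSK log2 fold change minus that of HPC7 in 1 fit over all 18 libraries (of 13891 genes in that fit, 45.3% passed an adjusted p of 0.05). The difference was -0.95 ± 0.21 for Socs3 (adjusted p = 0.00096), -1.96 ± 0.20 for Bcl3 (3.5e-07) and -1.67 ± 0.13 for Pim1 (1.2e-08), so all were changed less in HPCLSK. It was -2.45 ± 0.35 for Isg15 (1.4e-05), -3.90 ± 0.71 for Oas2 (0.00019), -4.74 ± 0.38 for Ifitm3 (1.6e-08) and -4.74 ± 0.52 for Nlrc5 (6.4e-07). For Stat3 itself it was 2.24 ± 0.07 (6.1e-14). No difference passed for Cish (-0.08 ± 0.17) or Irf7 (-0.77 ± 1.02). The Irf7 difference moved to -3.0 without STAT3 library 2 of HPC7 and to -0.18 without STAT3 library 2 of HPCLSK, and also to -0.29 and -0.34 without STAT3 library 1 or 3 of HPC7. The STAT3 libraries of HPCLSK started higher for several of these genes: Ifitm3 was 131, 148 and 121 CPM there, against 0.433 ± 0.195 CPM in HPC7, and Socs3 34.9, 43.5 and 40.8 CPM against 1.68 ± 0.171 CPM, on scales set separately for the lines.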

How the data were processed

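The mRNA of the HPC7 and HPCLSK cell lines was sequenced as single-end reads, and the authors deposited raw counts per gene (50686 genes). Per the file headers these were made with featureCounts 1.5.1 and strand setting 2, and per the submitters' processing notes the reads were aligned with STAR to GRCm38. Gene symbols came from the reference table (50376 genes matched, 310 did not). The deposited counts were tested with edgeR 4.0.16 in R 4.3.3: filterByExpr, trimmed-mean factors and a quasi-likelihood fit over the 9 libraries of a line with group alone as a term, giving 6 residual degrees of freedom, with Benjamini-Hochberg adjustment over all tested genes. CPM used the same factors. Library totals were 29700806 to 38556669 counts in the 6 compared HPC7 libraries, where 3 counts equal 0.078 to 0.101 CPM; intervals and floors cover counting error only. Named genes were Stat3, Socs3, Bcl3, Pim1 and Cish, the 8 largest changes in each direction at 5 CPM or more without overlap, up to 2 per list at 1 CPM or more, the 5 most abundant called genes and up to 3 genes per direction at 0 in a group; all others were chosen after their values were seen, and some genes that the rule names are not reported here. The members and lists were chosen with earlier results of these data known. Alternatives were DESeq2 1.42.0, other scaling, filters and thresholds, a replicate block, each library left out, chromosome medians subtracted and chromosome 2 left out. The chromatin samples were not analysed here. The labels name 2 library kits, so the kit is not stated as fact.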

Additional observations from a re-analysis of the deposited data

Results flagged for a closer look

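For 8 of the 10 genes compared between the lines, the effect of Y640F over STAT3 differed between HPCLSK and HPC7 in a test of the difference itself (edgeR, adjusted p below 0.05). The values are the HPCLSK log2 fold change minus the HPC7 log2 fold change. Stat3 RNA differed by 2.24, and its order was opposite in the lines, lower with Y640F in HPC7 and higher with Y640F in HPCLSK. Among STAT3 targets the difference was -0.95 for Socs3, -1.96 for Bcl3 and -1.67 for Pim1, each of which was higher with Y640F in both lines. Among interferon-stimulated and antigen presentation genes it was -2.45 for Isg15, -3.90 for Oas2, -4.74 for Ifitm3 and -4.74 for Nlrc5. Isg15, Oas2 and Ifitm3 were higher with Y640F in both lines, whereas Nlrc5 was higher in HPC7 only and had a log2 fold change of -0.26 in HPCLSK. Line and sequencing run cannot be told apart in these differences.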

How the results depend on the processing

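In HPC7, 782 genes were called higher and 219 lower. A filter of 5 CPM in 3 libraries gave 352 and 92, since fewer genes were tested, and the adjusted p alone gave 3433 and 3055. In HPCLSK, where 1018 and 765 were called, those settings gave 614 and 368, then 3587 and 3169. Leaving out 1 library gave 766 to 820 higher and 213 to 241 lower calls in HPC7, and 941 to 1064 and 751 to 840 in HPCLSK. Counts in HPC7 were 771 and 220 with relative-log-expression scaling, 739 and 211 with DESeq2, 960 and 301 with no filter, 751 and 202 with the 6 libraries alone, 743 and 218 with chromosome medians subtracted and 685 and 211 without chromosome 2. With the replicate number as a block they were 780 and 222, and 1007 and 754 in HPCLSK. The correlations of same-numbered libraries were -0.06, -0.05 and -0.10, and those of differently numbered ones -0.01 to 0.08, so no pairing by number was seen. Values were centred over 3 libraries per group, so this check cannot show that pairing is absent. With that block the line differences were 2.24 for Stat3, -0.95 for Socs3, -1.95 for Bcl3, -1.68 for Pim1, -2.43 for Isg15, -3.84 for Oas2, -4.73 for Ifitm3, -4.75 for Nlrc5, -0.06 for Cish and -0.71 for Irf7. Over the leave-outs the uncalled line difference of Cish ran from -0.20 to 0.0025, changing sign in 1 setting, and the cause was not tested. Subtracting the median of the 5 tested Y-linked genes put Ddx3y at 0 and Eif2s3y at -0.12, by construction. Single-gene values in HPC7 were counted once for each named gene and alternative setting. Of these, 3355 kept direction and side of the setting's threshold, 38 passed it newly, 32 lost it and 2 changed sign. Most that passed newly did so with the adjusted p alone, where no fold was required. With the 2-fold minimum kept, only Cd74 and the immunoproteasome gene Psmb9 passed newly, each in some settings. Low counts limit the small genes: 26 higher and 4 lower calls had 1 to 3 counts in the other group.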
